A study of Mus musculus with 9 samples.

Results

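The caput and the corpus, the first and the middle segment of the mouse epididymis, were compared by RNA sequencing across all genes that had enough counts, with attention to functions other than the abundant secreted protein families of this organ. All animals were wild type C57BL/6J mice of 9 months with no treatment named, and each segment gave 3 libraries of flash-frozen tissue. The comparison used 6 of the 9 libraries of the series for its contrast, and the 3 libraries of the cauda, the last segment, entered the fit so that all 9 shared an estimate of the spread. Of the 24059 gene symbols in the deposited table, 14168 passed the count filter and were tested. Nothing in the labels tells whether the 3 libraries of a segment are from different mice, and the p-values therefore describe the spread among these libraries alone, which may be technical. Every library came from a whole segment that holds epithelium, muscle, vessels, nerves and sperm, so fewer cells of a type and less RNA per cell cannot be told apart in any result below.

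The epididymis is a long coiled duct in which sperm from the testis acquire motility and the ability to fertilize. Its lining is made mainly of principal cells, with clear, basal and immune cells among them, and principal cells change their gene expression from segment to segment as they alter the fluid around sperm. The caput takes up fluid and secretes many of the proteins that first coat sperm, and the corpus continues that work before sperm are stored in the cauda.

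Levels are given in CPM, a gene's count divided by the size of its library in megacounts after trimmed-mean scaling, and a change is log2 of corpus over caput, so a positive value was higher in the corpus. A gene was called when its adjusted p in edgeR's quasi-likelihood test was below 0.05. It was called past 2-fold when edgeR's glmTreat test placed the change beyond 2-fold at the same threshold, and level when the 95% interval of its change lay within 1.5-fold of no change. Total counts ranged from 3013470 to 3946335 in caput and from 2600061 to 6076479 in corpus, and a single count was worth 0.155 to 0.374 CPM. Correlations of log levels over genes were 0.98 to 0.983 among caput libraries, 0.978 to 0.982 among corpus libraries and 0.731 to 0.744 between the segments.

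Most measured genes differed between the segments, and the differences were about evenly split in direction. Of the genes tested, 57.7% were called, with 4180 (29.5%) higher in corpus and 3993 (28.2%) higher in caput. Past 2-fold there were 1208 genes (8.53%) higher in corpus and 1398 (9.87%) higher in caput. The median absolute change over all tested genes was 0.51 on the log2 scale. Called genes had a median fold of 1.82 where corpus was higher and of 2.02 where caput was higher. A level interval was found for 3865 genes (27.3%), which held 34.3% of caput CPM and 35.7% of corpus CPM. Of these, 884 were also called, with changes that were small but precisely measured.

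Well-known secreted families, 13 in number and among them the lipocalins, beta-defensins, cystatins and glutathione peroxidases, made up 169 of the tested genes, and 64.5% of them were past 2-fold against 17.8% of the other genes. The other genes still held most of the wide changes. Outside these families 1161 genes were past 2-fold higher in corpus and 1336 higher in caput, and changes of at least 64-fold were fitted for 101 and 138 of the other genes. For genes with no count in a segment, the fitted change can lie above what the counts bound. Cdhr3, with no count in corpus, had a fitted log2 change of -7.65. Against a floor of 3 counts it was at least 26.1-fold higher in caput. The other genes that were past 2-fold higher in caput took 14.5% to 15% of the CPM of caput libraries and 2.08% to 2.32% of corpus libraries. Those higher in corpus took 14.8% to 15.2% of corpus and 2.92% to 3.13% of caput. The results that follow concern these other genes.

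**Figure D1:**
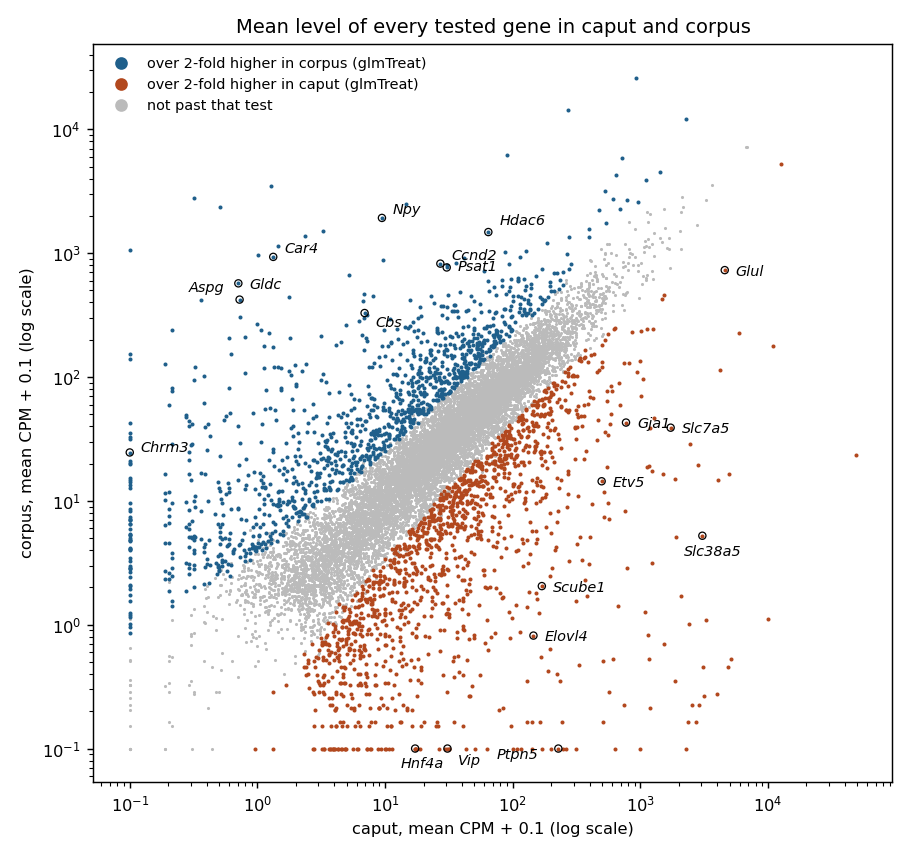
Mean level of each of the 14168 tested genes in caput (horizontal axis) and corpus (vertical axis), as mean CPM of 3 libraries plus 0.1, both on log scales; blue and orange points are the 1208 and 1398 genes past 2-fold, grey points the others. Named genes such as Gldc, Car4 and Npy lie far above the diagonal and Slc38a5, Ptpn5 and Elovl4 far below it.

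The genes with the widest changes were present in a segment and at or near 0 in its neighbour. Ptpn5, a tyrosine phosphatase best known from striatal neurons, had 241, 217 and 224 CPM in the caput libraries and was without a count in all 3 corpus libraries, which places it at least 1092-fold higher in caput against a floor of 3 counts over the corpus libraries. On the same floor Krt23, a keratin, was at least 688-fold higher in caput, Rab26, a small GTPase of secretory granules, at least 528-fold, and Tecta, a matrix protein of the inner ear's tectorial membrane, at least 479-fold. Muc5b, a gel-forming mucin, had 804, 1369 and 1238 CPM in caput and 0.749, 0.465 and 0.942 CPM in corpus (log2 change -10.62, SE 0.29, adjusted p = 3.69e-12). Libraries that did not overlap between the segments were a condition for naming genes by the widest change, and 63.5% of all tested genes met it. A further 2 genes stood out by their amount in caput. Ap1s2, a subunit of a clathrin adaptor, fell from 5207, 4778 and 4847 CPM in caput to 16.5, 20.3 and 12.6 CPM in corpus (log2 change -8.21, SE 0.16). Gpr64, an adhesion receptor that the ducts between testis and epididymis use in fluid handling, fell from 2662, 2620.1 and 3232 CPM to 19.5, 27.6 and 10.9 CPM (log2 change -7.17, SE 0.24).

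In the corpus direction Cwh43, whose yeast counterpart remodels the lipid of membrane anchors, had no count in caput and 1065, 1021 and 1122 CPM in corpus, at least 3539.5-fold higher there. Cd177, a membrane protein of neutrophils, and Coch, an extracellular matrix protein of the inner ear, had no count in caput and were at least 119-fold and 108-fold higher in corpus. Car4, a carbonic anhydrase anchored to the outer face of the cell membrane, rose from 1.69, 0.936 and 1.06 CPM in caput to 956, 872 and 973 CPM in corpus (log2 change 9.57, SE 0.16, adjusted p = 5.66e-14). Cacna1b, the pore of the N-type calcium channel, had 0.675, 0 and 0 CPM in caput and 115, 106 and 139.7 CPM in corpus. Its few caput counts give a ratio of 597 with a counting interval of 165 to 4931. Hdac6, a cytoplasmic deacetylase of tubulin, had 67.5, 70.8 and 54.6 CPM in caput and 1394, 1469 and 1582 CPM in corpus (log2 change 4.53, SE 0.11). Over the other genes tested, 58 had no count in caput and were called higher in corpus, and 51 had none in corpus and were called higher in caput.

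To describe the differences by function, 49 gene lists were counted. Ribosomal proteins and oxidative phosphorylation stood furthest to the corpus side, and ETS factors, fatty acid oxidation and connexins furthest to the caput side. In most of the other lists, members moved in both directions at shares near those of all genes. The lists include 27 paralogous families or groups of related genes, with 12 to 60 tested members each. Of these 27, 21 had members at least 4-fold higher in corpus and others at least 4-fold higher in caput. Over all 14168 tested genes, 809 were called at least 4-fold higher in corpus and 981 in caput. Whether 21 is more than lists of such sizes would give at these shares was not tested.

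**Figure D2:**
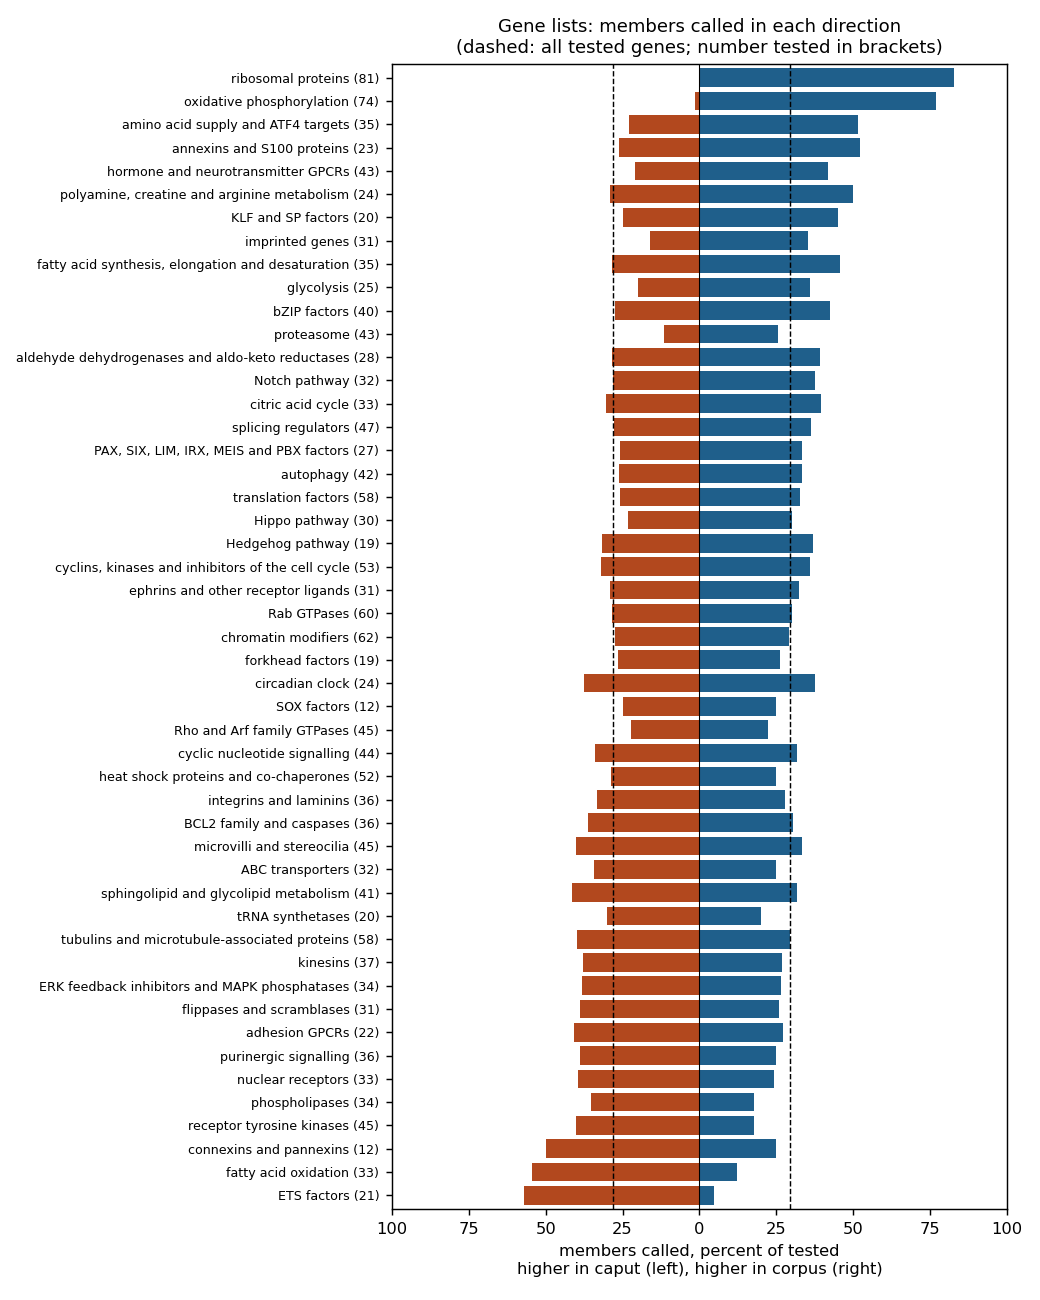
Share of the tested members of each gene list that were called higher in caput (orange, left) or higher in corpus (blue, right), with the number tested in brackets; dashed lines mark the shares over all 14168 tested genes, 28.2% and 29.5%. Ribosomal proteins (67 of 81 higher in corpus) and ETS factors (12 of 21 higher in caput) are at the ends.

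Several enzymes that make or break down serine, glycine and cysteine were higher in the corpus, and several membrane carriers that bring amino acids into cells were higher in the caput. Of 35 tested genes of amino acid supply, many of them known targets of the stress-responsive factor ATF4, 18 were called higher in corpus and 8 higher in caput, and the median change was 0.49. The called shares over all genes were 29.5% and 28.2%. All 3 enzymes that make serine from a glycolytic intermediate rose. Phgdh, the first enzyme, had 40.5, 43.7 and 36.4 CPM in caput and 178, 179 and 181 CPM in corpus (log2 change 2.16, SE 0.08). Psat1, the second, had 30.0, 36.2 and 24.5 CPM in caput and 788, 724 and 789.5 CPM in corpus (log2 change 4.67, SE 0.13, adjusted p = 5.28e-12). Psph, the last, had 15.5, 19.7 and 17.4 CPM in caput and 206, 205 and 223 CPM in corpus (log2 change 3.59, SE 0.11). The 3 libraries of each segment lay close together and far from those of the other. The sequence upstream of Psat1 is printed with the promoters further down.

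Some enzymes that use serine and glycine inside mitochondria were also higher in corpus. Gldc, the decarboxylase of the glycine cleavage system, had 0.675, 0.624 and 0.528 CPM in caput and 537, 566 and 609 CPM in corpus, a 907-fold difference with a 95% interval of 726 to 1134 (log2 change 9.82, SE 0.15, adjusted p = 4.22e-14). Its partner Gcsh, which carries the intermediate, rose by less, from 72.9, 68.3 and 67.8 CPM to 170, 177 and 174 CPM (log2 change 1.32, SE 0.07). Amt, the transferase of that system, had a log2 change of 0.38 (SE 0.12, adjusted p = 0.0136) that was not called without caput replicate 3 (adjusted p = 0.0757, the highest of 16 alternative settings, against a lowest of 0.0026). Dld, the subunit that the system shares with other dehydrogenases, was not called (log2 change 0.23, adjusted p = 0.0688). Shmt2, which makes glycine from serine in mitochondria, rose by 1.60 on the log2 scale (SE 0.08), and the mitochondrial folate enzymes Mthfd2 and Mthfd1l rose by 1.55 (SE 0.09) and 4.03 (SE 0.10). The cytosolic form Shmt1 was instead higher in caput (log2 change -1.78, SE 0.31). Mthfd1, the cytosolic folate enzyme, was level, with 37.8, 35.2 and 38.0 CPM in caput and 40.8, 36.6 and 35.0 CPM in corpus.

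Cbs and Cth, which turn homocysteine and serine into cysteine, were both higher in corpus. Cbs had 10.8, 5.93 and 3.69 CPM in caput and 339, 313 and 334 CPM in corpus (log2 change 5.64, SE 0.19), and Cth rose by 3.21 on the log2 scale (SE 0.12). Aspg, an asparaginase, had 0.675, 0.936 and 0.264 CPM in caput and 417, 418 and 431 CPM in corpus (log2 change 9.39, SE 0.25). Across these enzymes the corpus libraries were all above the caput libraries, and 63.5% of all tested genes had no overlap in either direction.

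Among the carriers, Slc38a5, which moves glutamine, serine and glycine with sodium, had 3225, 2929 and 3016 CPM in caput and 6.74, 7.13 and 1.51 CPM in corpus, a 609.7-fold difference with an interval of 399 to 932 (adjusted p = 1.04e-11). Slc7a5, an exchanger of large neutral amino acids, had 1705, 1633 and 1838 CPM in caput and 36.0, 42.2 and 38.6 CPM in corpus (log2 change -5.46, SE 0.11). Its partner chain Slc3a2, the arginine carrier Slc7a1 and the glutamine carrier Slc1a5 fell too (log2 changes of -1.38, -1.51 and -1.2, SE 0.08, 0.11 and 0.10). Slc1a4, a carrier of serine and alanine, went the other way (log2 change 1.06, SE 0.14). Glul, which makes glutamine, had 4783, 4747 and 4204 CPM in caput and 753, 800.1 and 637 CPM in corpus (log2 change -2.65, SE 0.10). Phgdh, Psph, Gcsh, Amt, Dld, Shmt2, Mthfd2, Mthfd1l, Mthfd1, Cth, Slc1a4, Slc1a5, Slc3a2 and Slc7a1 were added after their values were seen, to complete the steps of these routes.

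**Figure D3:**
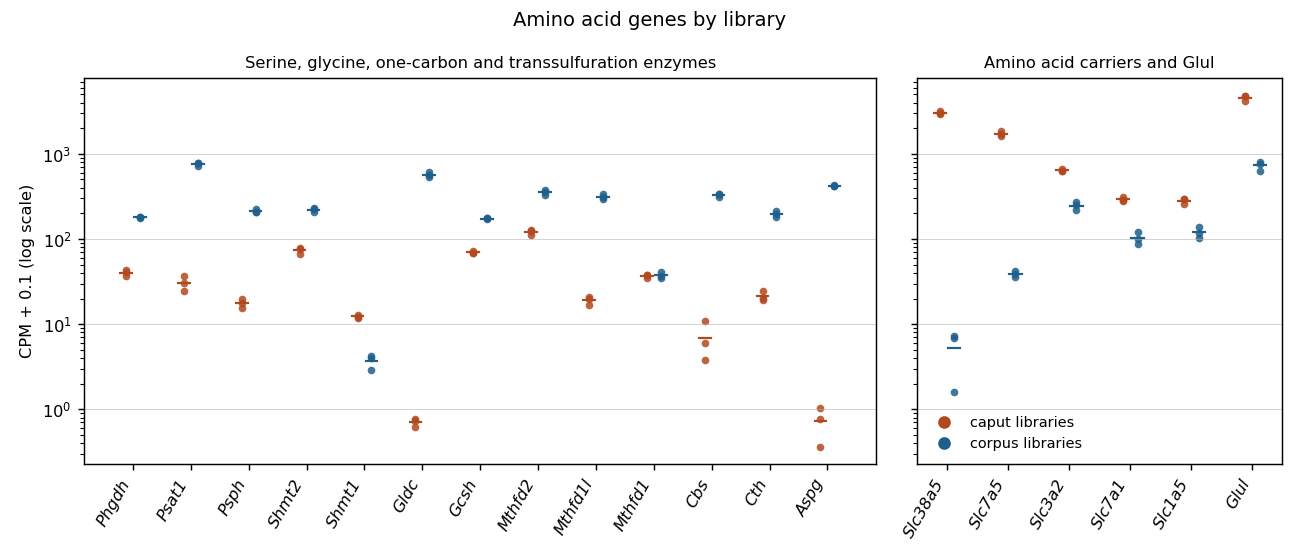
Level of genes of amino acid supply in each library, as CPM plus 0.1 on a log scale; orange points are the 3 caput and blue points the 3 corpus libraries, and a bar marks each mean. The left panel has enzymes, of which Gldc, Aspg, Cbs and Psat1 are widest apart. The right panel has Slc38a5, Slc7a5, Slc3a2, Slc7a1, Slc1a5 and the glutamine-making enzyme Glul, which were higher in caput. The carrier Slc1a4, which was higher in corpus, is not shown.

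Several peptides and receptors of neurotransmitters and hormones were detected in only 1 of these segments or nearly so. Of 43 tested receptors, 18 were called higher in corpus and 9 higher in caput, with 9 and 6 past 2-fold and a median change of 0.54. The shares over all tested genes were 29.5% and 28.2% called, and 8.53% and 9.87% past 2-fold. Npy, the neuropeptide Y precursor, had 7.43, 10.6 and 10 CPM in caput and 1905, 1633 and 2244 CPM in corpus (log2 change 7.67, SE 0.26, adjusted p = 2.49e-11). Npy2r, a receptor for that peptide, rose in the same segment, from 0, 1.2 and 0.264 CPM to 88.4, 73.5 and 82.3 CPM (log2 change 7.26, SE 0.34, and 8.86 without caput replicate 2). Vip, the precursor of vasoactive intestinal peptide, had 29.0, 23.7 and 39.3 CPM in caput, where it was at least 150-fold higher, since the corpus libraries held no count. Its receptor Vipr1 was higher in the other segment, with 11.5, 9.67 and 11.6 CPM in caput and 79.0, 99.4 and 81.4 CPM in corpus (log2 change 2.99, SE 0.16). Markers of nerve and Schwann cells summed to 36.9 to 42.5 CPM in caput and 15.6 to 25.6 CPM in corpus over 8 genes, with Nefl at 0 in both segments and Prph at 0 in caput, and their part in the peptide results was not tested.

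Both neurotensin receptors were found in caput. Ntsr1 had 109, 104 and 137 CPM there and 0 in each corpus library, a difference of at least 569-fold, and Ntsr2 had 294, 359 and 332 CPM there and 1.12, 0 and 0 CPM in corpus. Oxtr, the oxytocin receptor, fell from 165, 166 and 168 CPM in caput to 18, 23.4 and 24.3 CPM in corpus (log2 change -2.89, SE 0.13). Gper1, a membrane receptor for estrogen, had 21.6, 18.4 and 17.2 CPM in caput and 0, 0.155 and 0 CPM in corpus. Chrm3, a muscarinic acetylcholine receptor, had no count in caput and 26.2, 18.6 and 28.6 CPM in corpus, at least 78.7-fold higher there. Adora1, an adenosine receptor that lowers cyclic AMP, rose from 21.9, 16.8 and 15.6 CPM to 228, 214 and 280.0 CPM (log2 change 3.75, SE 0.14). None of these receptors overlapped between the segments, and 63.5% of all tested genes did not overlap either. In the wider purinergic list, 9 of 36 members were called higher in corpus and 14 higher in caput, against 29.5% and 28.2% of all genes. Among them the phosphatase Alpl, which releases adenosine from its phosphates outside the cell, was higher in caput (log2 change -4.80, SE 0.16), and the 5′-nucleotidase Nt5e was higher in corpus (log2 change 1.34, SE 0.09).

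Cyclic AMP, which principal cells use to drive secretion, is degraded by phosphodiesterases. All 4 phosphodiesterases of the Pde4 group were higher in caput, with log2 changes of -3.95 for Pde4a (SE 0.21), -2.20 for Pde4b (SE 0.33), -4.29 for Pde4c (SE 0.55) and -1.77 for Pde4d (SE 0.17). Without corpus replicate 3 the change of Pde4c was -3.65. Pde7b also fell (log2 change -3.15, SE 0.33), whereas Pde8b rose from 12.2, 11.5 and 9.24 CPM in caput to 82.8, 78.3 and 83.4 CPM in corpus (log2 change 2.90, SE 0.12). Prkar2b, a regulatory subunit of protein kinase A, had 1.35, 1.56 and 1.85 CPM in caput and 26.2, 28.7 and 32.4 CPM in corpus (log2 change 4.17, SE 0.23). Rapgef3 and Rapgef4, exchange factors that respond to cyclic AMP without the kinase, rose by 2.05 (SE 0.13) and 2.59 (SE 0.13), and the catalytic subunit Prkacb fell by 1.07 (SE 0.07) on the same scale. Over the 44 tested members of the list, 14 were called higher in corpus and 15 higher in caput, shares close to those of all genes.

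Hedgehog proteins are secreted signals that bind Ptch receptors and so release Smo, which turns on the Gli factors. The ligands were higher in corpus, whereas the receptors and Gli1 were not. Shh had 28.4, 30.9 and 27.7 CPM in caput and 188, 138 and 162 CPM in corpus (log2 change 2.48, SE 0.15, adjusted p = 7.61e-09). Ihh rose from 7.43, 8.42 and 5.01 CPM to 45.3, 45.1 and 40.9 CPM (log2 change 2.67, SE 0.16), and Disp2, a relative of the protein that releases the ligand, rose by 2.89 (SE 0.23). Hhip, a decoy that binds the ligand, was called higher in corpus with an uneven 110, 80.5 and 28.1 CPM against 24.0, 20 and 19.3 CPM in caput (log2 change 1.75, SE 0.40). Ptch1 (log2 change -0.29, interval -1.40 to 0.82) and Gli1 (log2 change -0.41, interval -1.31 to 0.50) were not called, and their intervals do not exclude changes past 2-fold. Without corpus replicate 3, Ptch1 was called higher in caput (log2 change -1.21, adjusted p = 0.0417, the lowest of 16 alternative settings, against a highest of 0.89). Markers of fibroblasts, the cells that usually receive these signals, summed to 726 to 895 CPM in caput and 431 to 1160 CPM in corpus, and their part was not tested. Smo fell by 0.63 (SE 0.12), and Scube1, a secreted helper of ligand release in vertebrates, fell from 184, 176 and 146 CPM to 1.87, 3.41 and 0.565 CPM (log2 change -6.33, SE 0.25, and -7.34 without corpus replicate 2). Of the 19 tested members, 7 were called higher in corpus and 6 higher in caput, against 29.5% and 28.2% of all genes. Vipr1, Nt5e, Pde4b, Pde4d, Rapgef3, Rapgef4, Prkacb, Hhip, Ptch1, Gli1 and Smo were named after their values were seen.

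**Figure D4:**
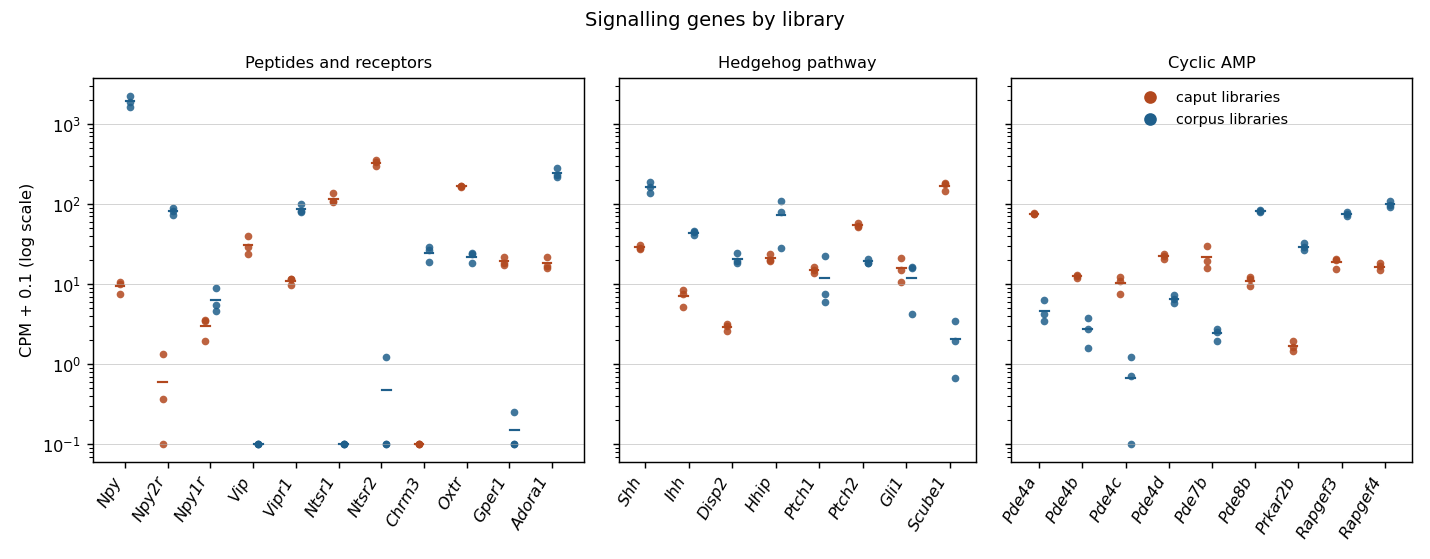
Level of signalling genes in each library, as CPM plus 0.1 on a log scale; orange points are the 3 caput and blue points the 3 corpus libraries, and a bar marks each mean. The left panel has peptides and receptors, the middle panel the Hedgehog pathway and the right panel cyclic AMP genes; Npy, Npy2r and Chrm3 are high in corpus, and Vip, both neurotensin receptors and the Pde4 genes are high in caput.

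Of 31 tested growth factors and other receptor ligands, 10 were called higher in corpus and 9 higher in caput, shares near the 29.5% and 28.2% of all genes. Egf rose from 17.6, 15 and 17.4 CPM in caput to 137, 135 and 172 CPM in corpus (log2 change 3.15, SE 0.12). The neurotrophic ligands Gdnf and Artn rose by 2.97 (SE 0.29) and 2.04 (SE 0.23), with corpus means below 30 CPM, and Angpt2, a vessel-remodelling factor, rose by 3.38 (SE 0.35). Vegfa, the main growth factor of blood vessels, had 186, 186 and 189 CPM in caput and 44.2, 36.8 and 38.0 CPM in corpus (log2 change -2.25, SE 0.08). Il34, a ligand that sustains macrophages, fell from 38.5, 38.1 and 44.9 CPM to 1.12, 2.79 and 0.753 CPM (log2 change -4.55, SE 0.30, and -5.48 without corpus replicate 2). Macrophage markers summed to 301 to 325 CPM in caput and 168 to 237 CPM in corpus, with 5 of 10 called higher in caput and none higher in corpus, and their part in the result was not tested. Among 45 tested receptor tyrosine kinases 18 were called higher in caput and 8 higher in corpus. They include Ros1, a receptor needed for the development of the proximal epididymis in mice, which fell from 286, 281 and 393 CPM to 5.24, 4.03 and 3.95 CPM. Artn was named after its values were seen.

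Among genes that control transcription, the ETS family was the most one-sided. Of 21 tested members, 12 were called higher in caput and 1, Ehf, higher in corpus (log2 change 1.02, SE 0.08), with a median change of -0.67. The called shares over all genes were 28.2% and 29.5%. Etv5, a factor that acts below fibroblast growth factor receptors, had 477, 480 and 534 CPM in caput and 15, 14.3 and 13.6 CPM in corpus (log2 change -5.13, SE 0.11, adjusted p = 4.81e-13). Its relatives Etv4 and Etv1 and the repressor Erf fell as well (log2 changes of -6.37, -3.26 and -1.81, SE 0.27, 0.24 and 0.14). With total counts as library sizes, which shifted the median of all genes by 0.07, 2 ETS genes were called higher in corpus.

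Nuclear receptors, which switch genes in response to hormones and lipids, were called higher in caput for 13 of 33 members and higher in corpus for 8, the latter falling to 5 with DESeq2 and without caput replicate 3. Over all tested genes 28.2% were called higher in caput and 29.5% higher in corpus. Hnf4a, a lipid-responsive factor of liver and gut, had 16.9, 22.8 and 11.6 CPM in caput, at least 80.7-fold higher than in corpus, where no library held a count. Ppara, which turns on fatty acid breakdown, fell from 28.7, 28.1 and 28.2 CPM to 5.24, 7.44 and 6.59 CPM (log2 change -2.09, SE 0.20), and its relative Ppard rose by 1.3 (SE 0.09). The estrogen receptors Esr1 and Esr2 fell (log2 changes of -1.91 and -3.28, SE 0.30 and 0.34).

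Other regulators also differed widely. Lhx6, a LIM homeobox factor, rose from 2.03, 2.81 and 0.792 CPM in caput to 130.3, 128 and 119.6 CPM in corpus (log2 change 6.10, SE 0.19). Sox9, a regulator of duct development, fell from 192, 170.0 and 192 CPM to 18, 21.1 and 15.4 CPM (log2 change -3.33, SE 0.15). Ccnd2, a cyclin that drives entry into the cell cycle, had 27.7, 29.3 and 24.0 CPM in caput and 815, 701 and 956 CPM in corpus (log2 change 4.94, SE 0.13). Cdkn1a, an inhibitor of the cell cycle, rose with it (log2 change 2.69, SE 0.11). Over the 53 tested cell cycle genes 19 were called higher in corpus and 17 higher in caput, against 29.5% and 28.2% of all genes. Etv1, Erf and Esr1 were named after their values were seen.

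Genes that burn fatty acids were mostly higher in caput. Of 33 tested genes of fatty acid oxidation, 18 were called higher in caput and 4 higher in corpus, with a median change of -0.34. The called shares over all genes were 28.2% and 29.5%. Together the list held 3210 to 3361 CPM in caput and 2668 to 2745 CPM in corpus. Cpt1a, which admits fatty acids to mitochondria, had 288, 306 and 365 CPM in caput and 34.8, 41.2 and 41.1 CPM in corpus (log2 change -3.02, SE 0.11). The carnitine carrier Slc25a20 of the inner membrane had a log2 change of -2.86 (SE 0.17) and the long-chain dehydrogenase Acadl of -2.17 (SE 0.15). Hadha, which carries out the later steps on long chains, was level (log2 interval -0.29 to 0.03).

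Lipid-building genes went both ways. In the list of fatty acid synthesis, elongation and desaturation 16 of 35 members were called higher in corpus and 10 higher in caput, and in that of sphingolipid and glycolipid metabolism 13 of 41 and 17 of 41. Over all tested genes 29.5% were called higher in corpus and 28.2% higher in caput. Elovl4, which makes very long fatty acids, fell from 128, 131 and 176 CPM in caput to 1.5, 0.465 and 0.188 CPM in corpus (log2 change -7.96, SE 0.27, and -8.63 without corpus replicate 1). Fa2h, a fatty acid hydroxylase for sphingolipids, fell by 5.38 on that scale (SE 0.38), and Smpdl3b, a membrane phosphodiesterase related to sphingomyelinases, fell by 6.38 (SE 0.36), with changes of -7.04 and -5.75 without corpus replicates 2 and 3. The ceramide synthase Cers4 rose from 9.11, 10.9 and 8.97 CPM to 243, 242 and 232 CPM (log2 change 4.63, SE 0.17). Sphk1, which makes sphingosine phosphate, rose by 3.11 (SE 0.12), and Sgpl1, which destroys it, fell by 1.03 (SE 0.10). S1pr3, a receptor for that lipid, was higher in caput (log2 change -4.10, SE 0.40, and -5.89 without corpus replicate 2). In the list of polyamine, creatine and arginine metabolism 12 of 24 members were called higher in corpus and 7 higher in caput, the latter falling to 4 without caput replicate 1. Its polyamine enzymes Odc1, Srm and Sat1 rose by 1.24 (SE 0.12), 1.63 (SE 0.11) and 2.16 (SE 0.08). Hadha, Sgpl1 and Odc1 were named after their values were seen.

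Connexins join neighbouring cells through gap junctions, and of 12 tested connexins and pannexins 6 were called higher in caput and 3 higher in corpus, or 5 in corpus with a filter of at least 1 CPM in 3 libraries. Over all tested genes 28.2% were called higher in caput and 29.5% higher in corpus. Gja1, the most widespread connexin, had 794, 712 and 808 CPM in caput and 45.7, 41.6 and 41.1 CPM in corpus (log2 change -4.18, SE 0.09, adjusted p = 4.35e-13). Gjb6 fell (log2 change -5.58, SE 0.41), while Gjc1 rose from 7.09, 6.24 and 4.49 CPM to 44.6, 40.6 and 38.0 CPM (log2 change 2.80, SE 0.18).

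Microvilli of principal cells are held in a brush border by cadherins and actin-bundling proteins. Of 45 tested genes for microvilli and stereocilia, 15 were called higher in corpus and 18 higher in caput, with 12 and 9 past 2-fold, against 29.5% and 28.2% of all genes called and 8.53% and 9.87% past 2-fold. The paired cadherins of the microvillar tips went opposite ways. Cdhr5 had 39.8, 32.8 and 31.9 CPM in caput and 0, 0 and 0.188 CPM in corpus, a ratio of 498 with a counting interval of 88.9 to 19744. Cdhr2 rose from 2.70, 3.43 and 3.96 CPM to 85.4, 102.8 and 87.4 CPM (log2 change 4.75, SE 0.21). Among scaffolds of membrane proteins, Pdzk1 had 588, 546 and 529 CPM in caput and 7.12, 9.61 and 12.1 CPM in corpus (log2 change -5.79, SE 0.17), and Slc9a3r1 rose from 66.2, 66.1 and 63.3 CPM to 495, 483 and 502 CPM (log2 change 2.92, SE 0.08). The actin bundler Lcp1 fell by 3.57 (SE 0.10), and Ezr itself fell by 0.80 (SE 0.07). Prom1 and Prom2, proteins of membrane protrusions, rose by 1.68 (SE 0.09) and 1.83 (SE 0.08). Lcp1, Ezr and Prom1 were named after their values were seen.

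The protein-making and respiratory lists showed small changes that were shared by most of their members. Of 81 tested ribosomal proteins, 67 were called higher in corpus and 0 higher in caput in edgeR's test, with a median change of 0.50 and 1 member past 2-fold. Without corpus replicate 3, 1 member was called higher in caput, and over all other settings none was. Summed over the list they held 13645 to 14126 CPM in caput and 18482 to 20030.4 CPM in corpus. Of 74 tested subunits of oxidative phosphorylation, 57 were called higher in corpus and 1 higher in caput, with a median of 0.48 and sums of 6040 to 6113 CPM in caput and 8494 to 8990.1 CPM in corpus. Over the alternative settings the counts higher in corpus ran from 63 to 69 and from 51 to 58. In the main setting 29.5% of all tested genes were called higher in corpus and 28.2% higher in caput.

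Most of these genes are short, and short genes as a whole were higher in corpus. Genes whose longest annotated transcript had at most 800 bases had a median change of 0.52 outside both lists (n = 322) and of 0.58 within them (n = 41). Over 800 and up to 1200 bases the medians were 0.27 outside and 0.55 within, and over 1200 and up to 2000 bases they were 0.15 and 0.31. Genes over 4000 bases had a median of -0.13 outside the lists. For 22 members of over 2000 and up to 4000 bases the median was 0.61, against 0.02 for other genes of that length. The part of this length trend in the changes of both lists was not tested.

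Other housekeeping lists stayed closer to no change. Of 43 tested proteasome genes 34 were level, of 58 translation factors 38 and of 20 tRNA synthetases 15, against 27.3% of all genes. A level call needs a narrow interval as well as a small change. The part of gene abundance in these shares was not tested. Eef1a1, the main elongation factor, had 3695, 3491 and 3650.3 CPM in caput and 3689.8, 3288 and 3751 CPM in corpus (log2 interval -0.17 to 0.15). Itm2b, a membrane protein of secretory cells, had 6540.1, 6788 and 6683 CPM in caput and 7327, 6659 and 7693 CPM in corpus (log2 interval -0.06 to 0.29). The chaperone Hspa5 (log2 interval -0.07 to 0.31) and Tmbim6, an inhibitor of cell death in the endoplasmic reticulum (log2 interval -0.23 to 0.07), were also among the 10 level genes with the highest mean CPM.

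The promoters of genes past 2-fold were less often rich in CpG dinucleotides, the pairs of C and G that cluster at the starts of widely used genes. The sequences below show how far single genes range, with the 250 bases upstream of the start in RefSeq's table (build GRCm38.p6), each 5′ to 3′ on the strand of its gene with CpG in capitals. They are 2 genes of the amino acid results (Gldc and Psat1), the carrier with the widest change (Slc38a5), the ETS factor Etv5, and Ddx5, an RNA helicase that was level (log2 interval 0.02 to 0.34).
Gldc: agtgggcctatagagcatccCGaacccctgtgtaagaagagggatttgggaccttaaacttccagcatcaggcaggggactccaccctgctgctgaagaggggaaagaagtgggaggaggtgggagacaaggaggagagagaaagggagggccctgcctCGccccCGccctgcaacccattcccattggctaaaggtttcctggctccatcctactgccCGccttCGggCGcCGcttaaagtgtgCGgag
Psat1: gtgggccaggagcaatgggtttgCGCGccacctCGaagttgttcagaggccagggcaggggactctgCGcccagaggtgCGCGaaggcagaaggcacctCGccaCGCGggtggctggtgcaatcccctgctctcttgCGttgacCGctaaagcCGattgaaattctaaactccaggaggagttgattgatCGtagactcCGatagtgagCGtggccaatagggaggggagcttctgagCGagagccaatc
Slc38a5: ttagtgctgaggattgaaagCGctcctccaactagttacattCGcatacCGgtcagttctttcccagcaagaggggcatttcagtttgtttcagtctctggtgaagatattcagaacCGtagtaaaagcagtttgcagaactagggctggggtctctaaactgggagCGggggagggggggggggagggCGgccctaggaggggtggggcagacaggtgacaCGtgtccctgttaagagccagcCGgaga
Etv5: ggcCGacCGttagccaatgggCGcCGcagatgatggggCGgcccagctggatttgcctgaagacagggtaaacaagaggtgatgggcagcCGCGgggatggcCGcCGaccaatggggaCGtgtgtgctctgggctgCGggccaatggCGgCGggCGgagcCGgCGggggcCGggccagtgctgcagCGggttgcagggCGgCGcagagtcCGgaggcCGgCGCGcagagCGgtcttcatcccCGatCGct
Ddx5: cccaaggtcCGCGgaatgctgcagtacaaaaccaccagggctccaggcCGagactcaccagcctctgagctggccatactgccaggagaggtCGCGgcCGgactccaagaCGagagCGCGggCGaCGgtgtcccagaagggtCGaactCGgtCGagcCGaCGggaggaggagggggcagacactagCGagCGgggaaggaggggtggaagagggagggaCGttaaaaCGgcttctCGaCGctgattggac

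The Gldc stretch lies at chr19:30175442-30175691 on the minus strand and holds 8 CpG, and that of Slc38a5 at chrX:8271131-8271380 on the plus strand also holds 8. Those of Psat1 (chr19:15925060-15925309, minus strand), Ddx5 (chr11:106789186-106789435, minus strand) and Etv5 (chr16:22439571-22439820, minus strand) hold 16, 22 and 27. Over 300 bases around the start, the ratio of observed to expected CpG was 0.389 for Gldc, 0.483 for Slc38a5, 0.749 for Psat1, 0.870 for Ddx5 and 0.938 for Etv5. So both CpG-poor and CpG-rich starts occur among genes that differed widely.

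A promoter was counted as CpG-rich at a ratio of at least 0.6. Among 11248 tested genes with a RefSeq promoter, 68.3% were CpG-rich. The share was 66.5% (95% Wilson interval 64.8 to 68.1) for genes called higher in caput and 67.5% (65.9 to 69.1) for genes called higher in corpus. Past 2-fold it was 51.8% for caput and 47.9% for corpus, and among level genes 84.1%. Read the other way, 13.2% of the 7686 genes with a CpG-rich promoter were past 2-fold and 34.9% were level, against 28.6% and 14.3% of the 3562 genes with a CpG-poor one. The part of gene abundance in these shares was not tested. The motif CCGGAAG, a core of ETS binding that itself holds a CpG, was searched on both strands and was present in 16.8% of all promoters, in 6.35% and 6.24% of those past 2-fold higher in caput and corpus, and in 24.5% of those of level genes. Within CpG-rich promoters the same shares were 21.2%, 8.88%, 9.71% and 26.4%. The TATA motif TATAAA was present in 7.73% of all promoters, in 9.11% and 12.7% of those past 2-fold higher in caput and corpus, and in 5.95% of those of level genes. A match is only a description of the letters in the window.

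**Figure D5:**
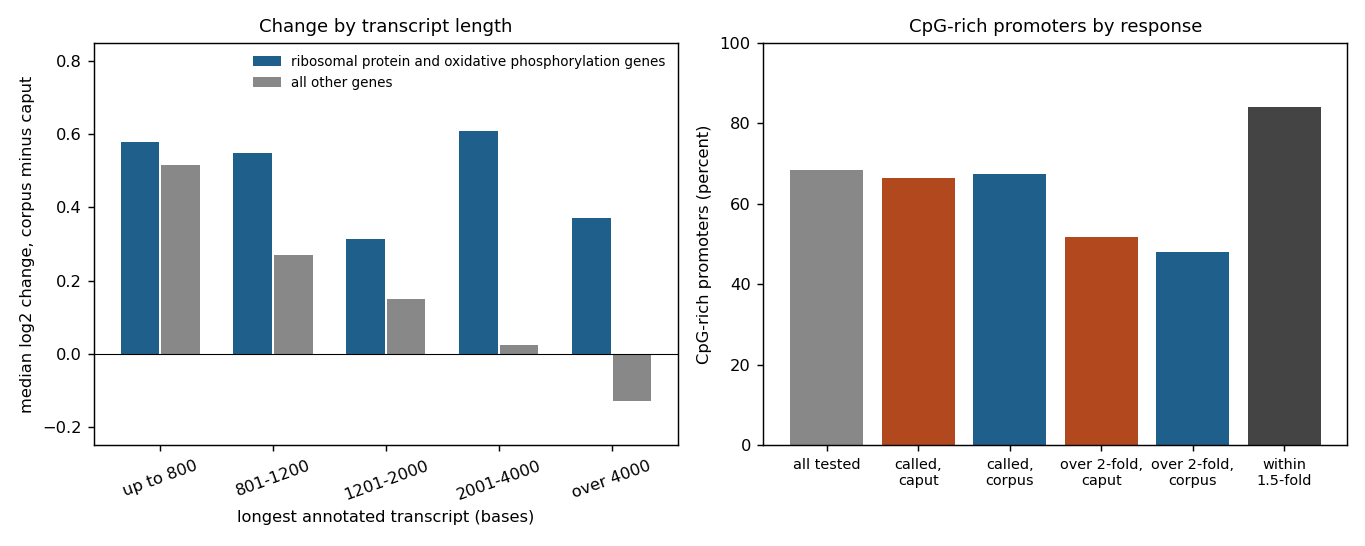
Left, median log2 change (corpus minus caput) of tested genes by the length of their longest annotated transcript, for ribosomal protein and oxidative phosphorylation genes (blue) and all other genes (grey, 0.52 at up to 800 bases and -0.13 over 4000). Right, percent of promoters that were CpG-rich among all tested genes (68.3%), called genes, genes past 2-fold (51.8% caput, 47.9% corpus) and level genes (84.1%).

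Genes past 2-fold lay beside a gene past 2-fold in the same direction more often than beside a gene past 2-fold in the opposite direction. Of the other genes past 2-fold with a tested neighbour, 400 of 1152 higher in corpus (34.7%) and 460 of 1330 higher in caput (34.6%) had a directly adjacent tested gene past 2-fold in the same direction. An adjacent gene past 2-fold in the opposite direction was found for 12.3% and 11%. The share of all tested genes with such neighbours was not counted. A caput run of related genes was the Armcx cluster on chromosome X (134686519 to 134809221 in GENCODE M21 on the mm10 assembly), whose 5 members code for armadillo-repeat proteins of mitochondria. Armcx4, Armcx1, Armcx3, Armcx2 and Armcx6 had log2 changes of -4.71, -4.65, -5.02, -4.82 and -6.52 (SE 0.25, 0.15, 0.14, 0.14 and 0.18). Armcx6 had 135, 126 and 129 CPM in caput and 0.749, 1.24 and 1.88 CPM in corpus. On chromosome 5 a run of 7 genes from 87554645 to 87894174 was higher in corpus, from the sulfotransferases Sult1d1 and Sult1e1 through casein genes to Odam, an enamel-matrix gene. Sult1e1, which inactivates estrogen, had 1.69, 0.624 and 0.792 CPM in caput and 113, 121 and 121 CPM in corpus (log2 change 6.85, SE 0.18). On chromosome 3 the glutathione transferases Gstm5, Gstm7, Gstm6 and Gstm3 (107895821 to 107969283) were all higher in corpus, with Gstm7 rising from 484, 497 and 444 CPM to 2173, 2342 and 2165 CPM. On chromosome 11 (98386450 to 98438991) Pnmt, Pgap3, Erbb2 and Mien1 formed such a run. Erbb2, a receptor tyrosine kinase, had 69.2, 59.3 and 71.5 CPM in caput and 253, 259 and 256.5 CPM in corpus. The 5 Armcx genes, Sult1d1, Sult1e1, Odam, Gstm5, Gstm6, Gstm3, Pnmt, Pgap3 and Mien1 were named after their values were seen.

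Markers of the cell types in the tissue show what else differed between these libraries. Principal cell markers summed to 999 to 1056 CPM in caput and 1583 to 1711 CPM in corpus over 5 genes, clear cell markers to 459 to 493 and 319 to 343 CPM over 9, and basal cell markers to 550.2 to 634 and 593 to 642 CPM over 10, with none of these markers at 0 in either segment. Of 8 tested clear cell markers, 4 were called higher in caput and 2 higher in corpus, with a median change of 0.01. Most of their gap was Atp6v0d2, with means of 167.6 CPM in caput and 50.5 CPM in corpus. In the principal cell list 3 markers were called higher in corpus and 1 higher in caput, and in the basal cell list 4 and 3. Over all tested genes 29.5% were called higher in corpus and 28.2% higher in caput. Smooth muscle markers summed to 2065 to 2209.9 CPM in caput and 271 to 866 CPM in corpus, with 3 of 10 called higher in caput, near the share of all genes. Most of that gap was Actg2, a smooth muscle actin, at 1209.7, 1155 and 1363 CPM in caput and 21.3, 24.3 and 6.03 CPM in corpus. Ciliated cell markers summed to 78.4 to 107.0 and 20.6 to 23.9 CPM, with 7 of 9 called higher in caput. Sntn, a protein of ciliary tips, had no count in corpus, and Foxj1, the regulator of motile cilia, had 36.5, 30.3 and 17.9 CPM in caput and 0.374, 0.310 and 0.188 CPM in corpus. Markers of sperm and germ cells summed to 186 to 214 CPM in caput and 506 to 559 CPM in corpus, with 13 of 14 called higher in corpus. Mesothelium markers summed to 115 to 159 CPM in caput and 3.77 to 11.3 CPM in corpus, mainly through Upk1b. Only 2 of these 5 markers were tested. Upk1b was called higher in caput and Wt1 higher in corpus, though Wt1 was not called without caput replicate 3 or corpus replicate 2. Upk3b had no count in caput. The part of these cell types in the changes of other genes was not tested.

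With 36-base reads some genes share sequence with copies elsewhere. More than 15% of the 36-base windows of the transcripts were also found in another gene for Phgdh (54.1%), Eef1a1 (49.0%), Slc28a2 (42.9%), Pdzk1 (36.7%), Gstm3 (35.3%), Armcx3 (29.9%), Odc1 (29.2%), Etv5 (28.7%), Shh (25%), Akr1b7 (24.3%), Mien1 (21.9%), Ddx5 (19%), Cebpb (18.9%), Adora1 (18.3%), Glul (18.3%) and Armcx6 (15.8%), so their counts are less certain. The kit keeps the strand, but the sources used here do not say that counting used it, and many of the genes named here overlap an annotated gene on the opposite strand. Among enzymes and carriers these are Psph, Shmt1, Shmt2, Mthfd1, Glul, Hadha, Cers4, Sphk1, Gstm5, Akr1b7, Slc28a3 and Abcc9. Among signalling genes they are Egf, Il34, Shh, Hhip, Gli1, Adora1, S1pr3, Gpr64, Pde8b, Rapgef3, Rapgef4 and Erbb2, and among the others Tecta, Rab26, Prom1, Ezr, Lcp1, Pdzk1, Cdkn1a, Ccnd2, Cebpb and Mien1. Rab26, Lhx6, Ddx5, Eef1a1 and Glul overlap annotated genes on the same strand.

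Most genes that were high in caput stayed low beyond the corpus. On log2 of CPM plus 0.5, the cauda mean was nearer to the corpus mean than to the caput mean for 1108 of the 1336 other genes past 2-fold higher in caput (82.9%) and for 742 of the 1161 higher in corpus (63.9%). Slc38a5, with a cauda mean of 2.63 CPM, and Slc7a5, with 44.6 CPM, stayed near their corpus levels, whereas Car4, with 28.7 CPM, Npy, with 315 CPM, and Aspg, with 66.6 CPM, were lower in the cauda than in the corpus. Gldc and Psat1, with 189 and 330.1 CPM, lay between the other segments.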

How the data were processed

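RNA of 9 libraries (3 each of caput, corpus and cauda) was prepared with a stranded mRNA kit and sequenced as single-end reads of 36 bases, per the labels' protocols. Bowtie2 2.2.0, FastQC 0.11.2, CASAVA 1.8.2 and the mm10 build are listed in the submitters' processing notes. What program counted reads, with what annotation and strand setting, is not given in the sources used here. Raw counts per gene symbol were deposited by the authors together with their RPKM values, which were used only to rank named genes per length.

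Counts were tested with edgeR 4.0.16 (R 4.3.3): filterByExpr, trimmed-mean scaling, a quasi-likelihood fit of all 9 libraries and the contrast corpus minus caput, with Benjamini-Hochberg adjustment over all 14168 tested genes at 0.05, and glmTreat against 2-fold. Standard errors and 95% intervals come from that fit. Tested genes held 99.78% to 99.82% of each library's counts. The steps were tested on simulated counts. A fold against a segment with no count uses a floor of 3 counts over its libraries, and one against 1 to 3 counts an exact counting interval; both cover counting error only.

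The members and gene lists were chosen with earlier results of these data known. Named genes were, outside the secreted families, the 15 widest changes and the 10 largest RPKM differences per direction. Both were taken from called genes at 20 CPM or more whose caput and corpus libraries did not overlap. Up to 3 called members per direction and the most abundant member of each list were also named. The 10 most abundant level genes were added. Others are marked in the text as named after their values were seen. A few genes that the rule names are not reported here. Transcript lengths, neighbours and overlaps came from GENCODE M21 on mm10 (23630 symbols matched) and promoters from RefSeq on GRCm38.p6. Alternatives included DESeq2 1.42.0, limma-voom (limma 3.58.1), other scalings and filters, and leaving out each library.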

Additional observations from a re-analysis of the deposited data

How the results depend on the processing

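The counts of genes called, past 2-fold and level stayed within 1.5 times of their values under all 16 other settings of the fit, and no gene called in the main setting was called in the opposite direction in any of them. Leaving out 1 caput or corpus library at a time gave 3804 to 4041 genes higher in corpus and 3671 to 3868 higher in caput, 1139 to 1221 and 1326 to 1439 of them past 2-fold, and 3318 to 3519 level genes. DESeq2 called 7282 genes in place of 8173. Total counts as library sizes moved the share of calls that were higher in corpus from 51.1% to 56.6%. Of 475 genes in the table of named genes 455 were called, and 438 of those were called in the same direction in every setting run. Of 98 list counts, 87 stayed within 1.5 times of their value.

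Counts that follow a threshold moved with it. Level genes numbered 990 with a margin of 0.32 on the log2 scale and 7558 within 2-fold. At 8-fold, 13 families had members in both directions. CpG-rich promoters made up 51.8% (caput) and 47.9% (corpus) of genes past 2-fold. With a ratio of at least 0.5 they made up 73.8% and 75.7% of called genes, and with 0.75 46.8% and 48.2%.

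Same-numbered caput and corpus libraries had correlated deviations of 0.0871, 0.154 and 0.239, against -0.208 to 0.0691 for differently numbered ones. Between caput and corpus each library thus correlated best with its own number. Against the cauda this did not always hold. Corpus replicate 2 had 0.174 with cauda replicate 1 and -0.045 with cauda replicate 2. The numbers were still not taken to pair the samples, because the labels do not say what they mark. With the replicate number as a block, 4264 genes were called higher in corpus and 4182 higher in caput, 1241 and 1439 of them past 2-fold, and 4022 were level. Depth limits what can be said of genes at a few counts, where 0 in 3 libraries does not show absence.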

Other observations

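Of 40 tested bZIP transcription factors 17 were called higher in corpus and 11 higher in caput, against 29.5% and 28.2% of all genes. Fos, a factor switched on quickly by many stimuli, had 44.2, 29.6 and 30.1 CPM in caput and 371, 309 and 460.1 CPM in corpus (log2 change 3.46, SE 0.30, adjusted p = 4.39e-07). Fosb rose by 3.57 (SE 0.43) and Atf3, with an uneven 27.3, 45.3 and 78.9 CPM in corpus, by 2.81 (SE 0.54). Cebpb and Nfe2l3, of the same list, and the KLF factor Klf10 fell (log2 changes of -1.90, -2.01 and -1.85, SE 0.19, 0.15 and 0.15). The nuclear receptor Nr4a2 rose by 2.44 (SE 0.26), and Gdf15, a stress-induced cytokine, had 1.35, 0 and 0 CPM in caput and 36.0, 42.0 and 56.7 CPM in corpus.

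The parts of ATP-sensitive potassium channels were split between the segments. Kcnj11, a pore subunit, had 57.0, 51.5 and 72.3 CPM in caput and 0.374, 1.09 and 0.377 CPM in corpus (log2 change -6.40, SE 0.29, and -7.22 without corpus replicate 2), whereas Abcc8, the regulatory subunit that it joins in pancreatic beta cells, had 1.35, 1.87 and 1.06 CPM in caput and 69.7, 90.9 and 77.0 CPM in corpus (log2 change 5.80, SE 0.21). Kcnj8, the other pore, rose by 2.94 (SE 0.23), and Abcc9 was not called (log2 change 0.69, adjusted p = 0.273). Akr1b7, an aldo-keto reductase, rose from 0.675, 0.624 and 0.264 CPM to 156, 160.3 and 146 CPM, and Aldh3a1, an aldehyde dehydrogenase, by 5.59 (SE 0.29). Nucleoside carriers were exchanged too, with Slc28a3 falling by 5.28 (SE 0.20) and Slc28a2 rising by 4.17 (SE 0.41). Kcnj11, Kcnj8 and Abcc9 were named after their values were seen.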
